A study of Mus musculus with 12 samples.

Results

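The genes described here encode the enzymes that cut and cross-link the extracellular matrix, with their inhibitors: the matrix metalloproteinases (Mmp), the tissue inhibitors of metalloproteinases (Timp), the ADAMTS proteases and ADAMTS-like proteins (Adamts, Adamtsl), the membrane-bound ADAM proteases (Adam) and the lysyl oxidases (Lox, Loxl). They were taken by symbol from the table of RPKM values (reads scaled to gene length and library size), and a gene was a member when it reached an RPKM of at least 0.2 in 3 or more of the 12 hearts. Of 74 matching symbols 54 were members, out of 31722 symbols in all, and 18426 genes met the same level. The members were 11 of 19 Mmp, 4 of 4 Timp, 5 of 5 Lox, 15 of 19 Adamts, 5 of 5 Adamtsl and 14 of 22 Adam symbols. RNA came from heart tissue of C57BL/6J mice, 6 in the Control group and 6 in a group given carbon tetrachloride (CCl4), a liver poison with which cirrhosis is induced in rodents, and the comparison asks how cirrhosis bears on the heart. The labels give no dose, duration, vehicle, age or sex, and no measure of the liver. Each sample is the heart of a separate mouse, by the design text.

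Metalloproteinases are made as inactive precursors whose catalytic zinc is masked by a propeptide; they cleave collagens, proteoglycans and cell surface proteins once activated. TIMPs bind the active enzymes, ADAMTS proteases process procollagens and large proteoglycans, and ADAMs release ectodomains of membrane proteins. Lysyl oxidases oxidise lysines of collagen and elastin, from which the cross-links of mature fibres form. In whole tissue, fewer cells of a type and less RNA per cell cannot be told apart.

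Library depth was read from the RPKM values themselves, whose smallest regular increment per gene is called a step here. Depth ran from 26353000 to 63406000 steps. Of the low step counts 70.3% to 73.6% were even in each library, so 1 step need not stand for 1 sequenced fragment. The 7 cardiomyocyte markers summed to 24630 to 30870 RPKM in Control and 17370 to 27210 RPKM in CCl4 hearts. Libraries also differed within each group. Mitochondrial RNA took 31.1% to 39.7% of reads in Control and 33.4% to 45.7% in CCl4 libraries, and CCl4 replicates 1 and 2 were the highest. The 5 atrial markers summed to 604 to 15040 RPKM in Control and 833 to 11720 RPKM in CCl4 hearts, highest in Control replicate 1 and CCl4 replicate 4. Most of this sum was Nppa in every heart, so it does not measure atrial tissue alone. In each group replicates 2 and 5 had almost no Xist RNA.

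No member passed the test between the groups, in which a gene was called at a Benjamini-Hochberg adjusted p under 0.05 over all 18426 genes (limma, two-sided). CCl4 replicates 3, 5 and 6 held high levels of Lox, Loxl1, Loxl2, Loxl3, Timp1, Mmp2, Mmp14, Mmp23, Adamts2, Adamts12, Adamtsl3 and Adam9, in each case above all 6 Control hearts, while CCl4 replicates 1, 2 and 4 lay within or below the Control range for Lox, Loxl1 and Loxl2. In 19 members (35.2%, beside 28.7% of all genes) 5 or 6 CCl4 hearts were below the Control median, among them the proteoglycanase Adamts1, the membrane metalloproteinase Mmp15, the related protease Adamts9 and the inhibitor Timp4. The 19 include Adam23 and Adam32, which met the level for membership in Control hearts only. They also include Mmp13, which met that level in 5 Control hearts and 1 CCl4 heart. In 5 members (9.26%, beside 8.82%) 5 or 6 CCl4 hearts were above the Control median.

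Among all genes tested 0.0% were called higher and 0.0% lower, and at an unadjusted p under 0.05 the shares were 1.95% higher and 7.46% lower. Of the 54 members 3 were higher (Mmp2, Adamts2 and Loxl3) and 6 were lower (Adamts1, Mmp15, Adamts9, Timp4, Adamts7 and Mmp13) at that unadjusted p, which is 5.56% and 11.1%. Mmp13 met the level for membership in 5 Control hearts but only 1 CCl4 heart. It is thus a member only through its Control hearts, and its place among the lower members is no support. After median-of-ratios scaling 8 members were higher and 5 lower at that p, and over all genes 1012 were higher and 916 lower, so the split moves with the scaling. Log2 fold changes are differences of group means of log2(RPKM + 1), positive where CCl4 hearts are higher, and for genes at low levels this scale makes a change look smaller. Their median was 0.02 over the members and -0.03 over all genes, and 28 of 54 members lay above 0, beside 38.1% of all genes. The smallest adjusted p of a member was 0.193. With limma's array weights 9 members passed, 5 higher and 4 lower (9.26% and 7.41%), beside 2.09% and 4.2% of all genes. Those weights were lowest for CCl4 replicate 3 (0.28), CCl4 replicate 2 (0.343) and CCl4 replicate 1 (0.5). The highest weight of all libraries was that of CCl4 replicate 5 (3.75), a heart with high Lox, and CCl4 replicate 6 had 1.26. The weighted fit thus leans most on CCl4 replicate 5 within its group.

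**Figure D1:**
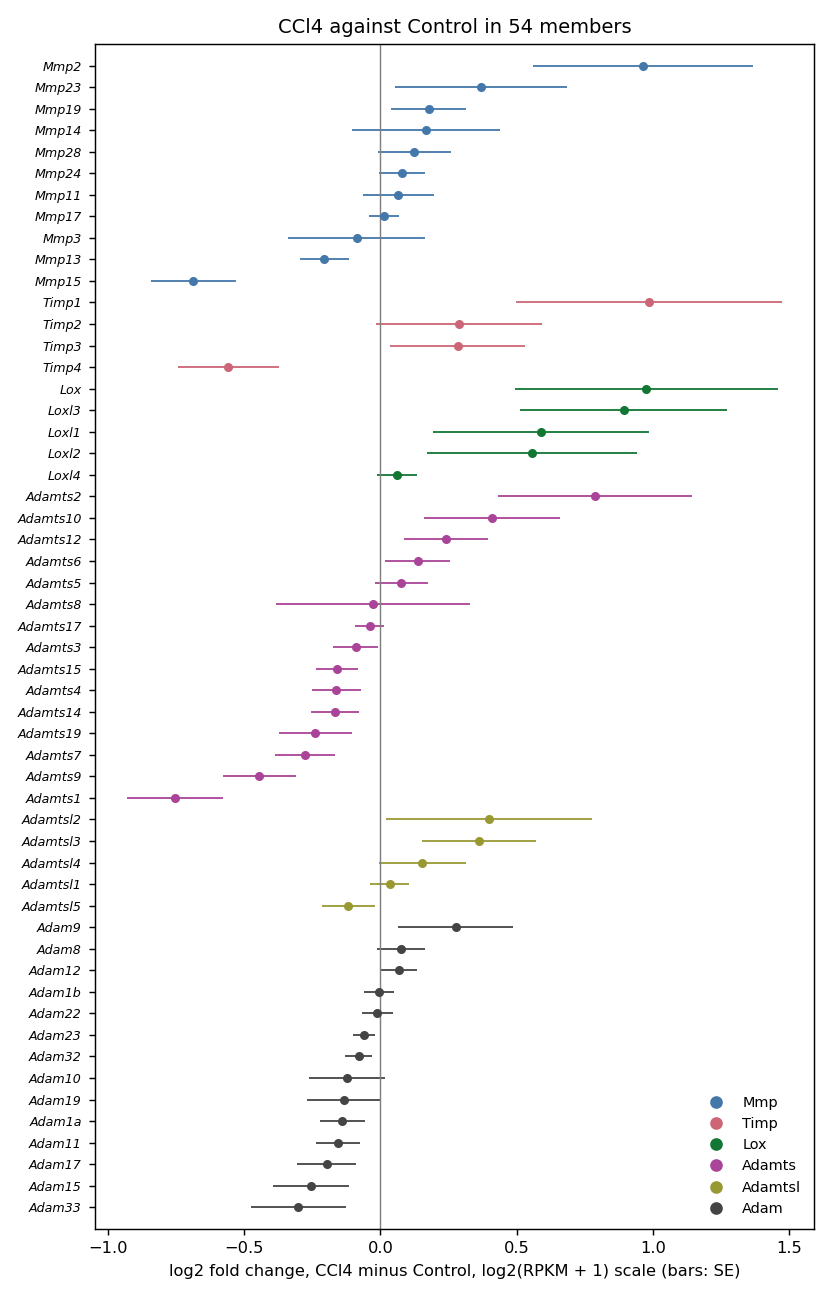
Log2 fold change of each of the 54 members between CCl4 and Control hearts, computed from log2(RPKM + 1) (x axis), with bars for the SE and colours for the families. All 5 lysyl oxidases lie to the right of 0 and 11 of 14 Adam genes to the left, and the longest bars belong to genes that were high in a few CCl4 hearts, such as Timp1 and Lox. Of all genes tested, not drawn, 38.1% had a log2 fold change above 0.

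The lysyl oxidases gave the clearest division between CCl4 hearts. Lox, the founding member of the family, ran from 0.286 through a median of 0.589 to 0.912 RPKM in Control hearts. In CCl4 replicates 1 to 6 it was at 0.283, 0.545, 13.7, 0.571, 3.35 and 3.52 RPKM. Replicates 3, 5 and 6 were above every Control heart and replicates 1, 2 and 4 were not. Group means were 0.593 ± 0.219 and 3.66 ± 5.13 RPKM (SD, n = 6 each), with a log2 fold change of 0.98 (SE 0.48, limma adjusted p = 0.551). Without CCl4 replicate 3 the log2 fold change of Lox was 0.53. Exons of Lox share 30 bases with an antisense gene.

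Loxl1, which acts on elastic fibres, ran from 4.43 to 6.66 RPKM in Control hearts with a median of 5.71 RPKM. In CCl4 replicates 1 to 6 it was at 4.52, 3.22, 31.2, 5.37, 12.5 and 14.2 RPKM. Loxl2, which also oxidises basement membrane collagen, ran from 2.83 to 4.91 RPKM in Control hearts, median 3.84 RPKM, and in CCl4 replicates 1 to 6 it was at 3.26, 2.14, 20.9, 3.20, 8.32 and 9.97 RPKM. The same 3 hearts stood above the Control range in both genes, and replicate 2 stood below it. Loxl3 ran from 1.24 to 2.49 RPKM in Control hearts, median 1.42 RPKM, and was at 1.13, 1.77, 12.5, 1.76, 5.32 and 6.63 RPKM in CCl4 replicates 1 to 6. Its log2 fold change was 0.89 (SE 0.38, limma adjusted p = 0.473), and those of Loxl1 and Loxl2 were 0.59 (SE 0.40) and 0.56 (SE 0.39). Without CCl4 replicate 3 the log2 fold changes were 0.59 for Loxl3, 0.25 for Loxl1 and 0.23 for Loxl2. Exons of Loxl3 share 535 bases with Htra2 on the other strand; whether counting used strand is not given in the sources used here. Loxl4 was the scarcest of the family, at 0.126 to 0.246 RPKM in Control and 0.0718 to 0.523 RPKM in CCl4 hearts, on 12 to 106 steps, and its log2 fold change of 0.06 was -0.0009 without CCl4 replicate 3.

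Because RPKM is scaled by gene length, levels of the 5 enzymes can be summed within a heart. The sum was 9.44 to 13.2 RPKM in Control hearts and 9.37, 7.75, 78.8, 11.1, 29.7 and 34.6 RPKM in CCl4 replicates 1 to 6. Loxl1 held 46.2% to 50.3% of the sum in every Control heart, and 39.6% to 48.5% in CCl4 hearts. The share of Lox itself was 2.58% to 7.86% in Control hearts and 17.4%, 11.3% and 10.2% in CCl4 replicates 3, 5 and 6. The hearts with the high sums thus also held a larger fraction of Lox among the 5 enzymes, while the other CCl4 hearts (3.02% to 7.03%) stayed within the Control range.

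**Figure D2:**
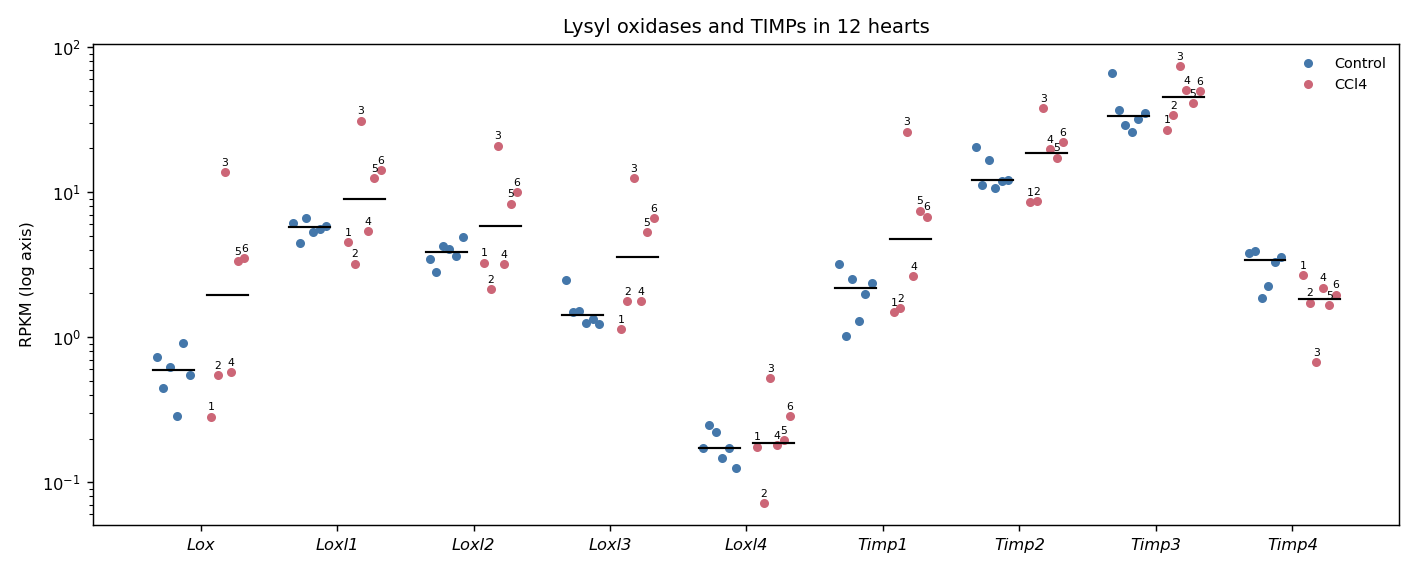
RPKM on a log axis of the 5 lysyl oxidases and the 4 TIMPs in 6 Control (blue) and 6 CCl4 (red) hearts; small numerals give the CCl4 replicate and black lines the group medians. CCl4 replicates 3, 5 and 6 lie above all Control hearts in Lox, Loxl1, Loxl2, Loxl3 and Timp1, and for Timp4 CCl4 replicate 3 is the lowest of the 12 hearts.

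The TIMPs lay on both sides of 0. Timp1, the inducible and freely secreted inhibitor, was at 1.02 to 3.21 RPKM in Control hearts, median 2.17 RPKM. In CCl4 replicates 1 to 6 it was at 1.49, 1.59, 26.1, 2.65, 7.47 and 6.78 RPKM. Replicates 3, 5 and 6 were above all Control hearts and the others were inside the Control range. Its log2 fold change was 0.99 (SE 0.49, limma adjusted p = 0.551), or 0.55 without CCl4 replicate 3. Timp1 lies on chromosome X (20870166 to 20874735, GRCm38) inside an intron of Syn1 on the other strand and shares no exon with it. Its start region is shown because Timp1 is known as the inhibitor whose transcription is induced by stimuli. The 250 bases before its annotated start (RefSeq, GRCm38.p6, plus strand, chrX:20869916-20870165) hold 1 match to the TEAD motif, in capitals, and no match to the AP-1 motif.
Timp1: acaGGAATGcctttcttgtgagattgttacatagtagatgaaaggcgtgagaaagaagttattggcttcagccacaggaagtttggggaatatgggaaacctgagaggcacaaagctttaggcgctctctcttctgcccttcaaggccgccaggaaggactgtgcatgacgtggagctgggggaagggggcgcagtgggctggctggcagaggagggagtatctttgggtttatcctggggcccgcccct

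Timp2, which inhibits MMPs and with Mmp14 also helps to activate Mmp2, was at 10.6 to 20.6 RPKM in Control hearts and at 8.49, 8.69, 37.7, 19.7, 17.3 and 22.1 RPKM in CCl4 replicates 1 to 6. Only replicates 3 and 6 were above the Control range, and replicates 1 and 2 were below it. Timp3, the inhibitor that binds to the matrix and also blocks ADAM17 and several ADAMTS enzymes, was the most abundant member. It ran from 25.9 to 66.8 RPKM in Control hearts, median 33.6 RPKM, and from 26.9 to 74.2 RPKM in CCl4 hearts, median 45.4 RPKM. The groups overlapped, and the top Control value belonged to replicate 1 (the other Control hearts reached at most 36.9 RPKM). Log2 fold changes were 0.29 for Timp2 (SE 0.31, limma adjusted p = 0.817) and 0.28 for Timp3 (SE 0.25, limma adjusted p = 0.764). Leaving out CCl4 replicate 3 gave 0.06 for Timp2 and 0.13 for Timp3, and leaving out Control replicate 1 gave 0.46 for Timp3. Exons of Timp3 share 1733 bases with Syn3 on the other strand.

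Timp4, the inhibitor known for its high level in heart muscle, lay lower in CCl4 hearts. It was at 3.82, 3.91, 1.87, 2.25, 3.28 and 3.56 RPKM in Control replicates 1 to 6 and at 2.67, 1.73, 0.669, 2.19, 1.67 and 1.96 RPKM in CCl4 replicates 1 to 6. All 6 CCl4 hearts were below the Control median, yet Control replicates 3 and 4 lay among them. The group means were 3.11 ± 0.856 and 1.81 ± 0.668 RPKM, with a log2 fold change of -0.56 (SE 0.19, limma adjusted p = 0.37). As a share of the 4 inhibitors, Timp4 held 3.73% to 7.36% in Control hearts and 0.483% in CCl4 replicate 3, where Timp1 held 18.8% against 1.93% to 5.06% in Control hearts. CCl4 replicate 3 also had the lowest sum of the cardiomyocyte markers, 17370 RPKM where the other CCl4 hearts had 24490 to 27210 RPKM. The part of the muscle content in the level of Timp4 was not tested.

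Of the 6 secreted metalloproteinases that were members, Mmp2 (gelatinase A, which degrades denatured and basement membrane collagen) was by far the most abundant. It was at 17.8 RPKM in Control replicate 1 and 6.37 to 9.55 RPKM in the other Control hearts, and at 7.11, 9.62, 46.7, 12.2, 25.5 and 34.4 RPKM in CCl4 replicates 1 to 6. Replicates 3, 5 and 6 were above all Control hearts, and replicates 2 and 4 were above all of them but replicate 1. The means were 9.43 ± 4.27 and 22.6 ± 15.8 RPKM, with a log2 fold change of 0.96 (SE 0.40, limma adjusted p = 0.473), 5 of 6 CCl4 hearts above the Control median. Mmp19 (0.18, SE 0.14), Mmp28 (0.13, SE 0.13) and Mmp11 (0.07, SE 0.13) lay at 0.431 to 2.29 RPKM in all hearts, with CCl4 replicate 3 the highest of the 12 hearts for each. Without CCl4 replicate 3 the log2 fold change of Mmp19 was 0.08. Mmp11 shares exon bases with Chchd10 on the other strand, 155 of them.

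The collagenase Mmp13 and the stromelysin Mmp3, which lie near each other on chromosome 9, are low in the heart. Mmp13 was at 0.0319 RPKM in Control replicate 1 and 0.299 to 0.525 RPKM in the other Control hearts, and at 0.364 RPKM in CCl4 replicate 1 and 0.0587 to 0.132 RPKM in the other CCl4 hearts. The replicates numbered 1 in both groups thus lay at the level of the opposite group. The values rest on 4 to 50 steps, and the log2 fold change was -0.21 (SE 0.09, limma adjusted p = 0.486). Mmp3 was at 0.911 to 3.17 RPKM in Control and 0.658 to 3.97 RPKM in CCl4 hearts (-0.09, SE 0.25), and the groups overlapped.

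The start regions of these protease genes are known as targets of AP-1, the factor of the Fos and Jun families, and so the 250 bases before the annotated start are shown for Mmp13 (chr9:7272264-7272513, plus strand) and Mmp3 (chr9:7445572-7445821, plus strand), from RefSeq on GRCm38.p6. Capitals mark the AP-1 motif TGANTCA and the TATA motif TATAAA, searched on both strands. The first base of the AP-1 match lies 35 bases before the start of Mmp13 and 46 bases before that of Mmp3.
Mmp13: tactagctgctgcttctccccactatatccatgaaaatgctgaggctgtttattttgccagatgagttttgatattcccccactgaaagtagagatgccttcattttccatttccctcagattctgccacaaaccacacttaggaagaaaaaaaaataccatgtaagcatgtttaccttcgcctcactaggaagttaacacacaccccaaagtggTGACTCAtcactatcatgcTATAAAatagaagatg
Mmp3: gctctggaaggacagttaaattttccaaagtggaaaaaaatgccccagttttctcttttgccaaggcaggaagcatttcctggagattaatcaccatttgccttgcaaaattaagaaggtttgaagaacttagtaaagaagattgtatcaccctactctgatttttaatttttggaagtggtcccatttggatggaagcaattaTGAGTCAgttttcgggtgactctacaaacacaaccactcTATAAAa

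RefSeq start windows were found for 33 of the 54 members, and 3 of the 33 (Mmp3, Mmp13 and Adam19) hold TGANTCA, which 6.75% of all 32851 windows of this length hold. TATAAA occurs in 4 of the 33 (Mmp3, Mmp13, Adamts1 and Adamtsl2) and in 12.4% of all windows. The other motifs searched, on both strands, were CAGACA (SMAD, 1 of 33, 17.1% of all windows), CACGTG (E-box, 3 of 33, 6.02%), GGAATG (TEAD, 2 of 33, 12.6%) and the CArG box (0 of 33, 1.47%). These matches describe letters in the windows and say nothing of binding.

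Of the membrane-bound metalloproteinases, Mmp14, the activator of Mmp2 at the cell surface, was at 1.83 to 2.56 RPKM in Control hearts and at 1.25, 1.14, 7.03, 1.51, 3.35 and 3.38 RPKM in CCl4 replicates 1 to 6. No CCl4 heart fell inside the Control range, since 3 were above it and 3 below, and the log2 fold change was 0.17 (SE 0.27, limma adjusted p = 0.888). Mmp23 was at 1.59 to 4.30 RPKM in Control hearts and 1.45, 1.68, 9.68, 2.71, 4.98 and 4.99 RPKM in CCl4 replicates 1 to 6 (0.37, SE 0.32), or 0.12 without CCl4 replicate 3. Mmp24 (2.17 to 3.14 RPKM in all hearts) and Mmp17 (0.172 to 0.396 RPKM) differed between the groups by less than their SE. The log2 fold change of Mmp24, 0.08 (SE 0.08), was 0.13 (SE 0.05) under median-of-ratios scaling, 0.12 (SE 0.05) after quantile normalization and 0.17 (SE 0.07) with mitochondrial genes left out of the scaling, none of them past the adjusted threshold.

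Mmp15, a membrane-type enzyme, had the smallest p of the 54 members. It was at 3.65, 6.39, 7.88, 7.84, 6.65 and 5.97 RPKM in Control replicates 1 to 6 and at 4.70, 2.56, 3.33, 4.10, 3.12 and 3.48 RPKM in CCl4 replicates 1 to 6. Control replicate 1 alone overlapped the CCl4 hearts. The means were 6.396 ± 1.55 and 3.55 ± 0.756 RPKM, with a log2 fold change of -0.69 (SE 0.16, limma adjusted p = 0.193), and 6 of 6 CCl4 hearts had less than the Control median. Without Control replicate 1 it was -0.81 (SE 0.12, limma adjusted p = 0.0386), and Mmp15 was then the only member that passed.

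Adamts1 cleaves versican and aggrecan and is known as an early response gene of endothelial and other cells. It was at 10.4, 9.68, 15.1, 20.6, 13.6 and 12.3 RPKM in Control replicates 1 to 6 and at 9.67, 5.30, 7.43, 6.75, 6.64 and 9.61 RPKM in CCl4 replicates 1 to 6. The groups did not overlap, though the highest CCl4 heart (9.667 RPKM) and the lowest Control heart (9.677 RPKM) nearly met. Adamts1 and Adam23 were the 2 members (3.7%) with all CCl4 hearts below all Control hearts, beside 0.619% of all genes; 0 members lay above all of them, beside 0.0434%. Without Control replicate 1 there were 4 below (7.41%, beside 2.01%), and under median-of-ratios scaling 0 (beside 0.223%). Adam23 is in each of the counts above 0 and met the level for membership in Control hearts only, so it had to be higher there, and the counts are no support for the members. The log2 fold change of Adamts1 was -0.75 (SE 0.18, limma adjusted p = 0.196), with means of 13.6 ± 3.98 and 7.57 ± 1.75 RPKM. The gene lies on chromosome 16 (85793827 to 85803113, GRCm38) with no overlapping gene in GENCODE M21. The 250 bases before its start (RefSeq, GRCm38.p6, minus strand, chr16:85803114-85803363) are shown because its groups did not overlap; capitals mark TATAAA, whose first base lies 32 bases before the start, and TGANTCA is not among these letters.
Adamts1: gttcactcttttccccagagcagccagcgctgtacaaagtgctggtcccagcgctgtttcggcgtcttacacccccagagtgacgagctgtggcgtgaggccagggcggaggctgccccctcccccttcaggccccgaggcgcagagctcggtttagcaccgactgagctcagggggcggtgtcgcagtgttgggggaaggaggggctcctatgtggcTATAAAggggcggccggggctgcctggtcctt

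Of the 6 proteoglycan-cleaving ADAMTS members 5 had a negative log2 fold change, Adamts8 barely so (-0.03, SE 0.36). Among all genes tested 38.1% had a positive one. Adamts9 was at 0.795 RPKM in Control replicate 1 and 1.61 to 2.25 RPKM in the other Control hearts, and at 0.616 to 1.25 RPKM in CCl4 hearts, so that Control replicate 1 again lay among the CCl4 hearts. Its log2 fold change was -0.44 (SE 0.14, limma adjusted p = 0.333). Adamts4 was lowest of the 12 hearts in Control replicate 1, on 13 to 123 steps, with 0.0576 RPKM in Control replicate 1, 0.297 to 0.447 RPKM in the other Control hearts and 0.0689 to 0.393 RPKM in CCl4 hearts (-0.16, SE 0.09). Adamts15 was at 0.325 to 0.676 and 0.238 to 0.561 RPKM (-0.16, SE 0.08). Adamts5, a main aggrecanase, was the exception with 1.51 to 1.93 and 1.41 to 2.70 RPKM (0.08, SE 0.10). Exons of Adamts9 share 1381 bases with A730049H05Rik on the other strand.

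**Figure D3:**
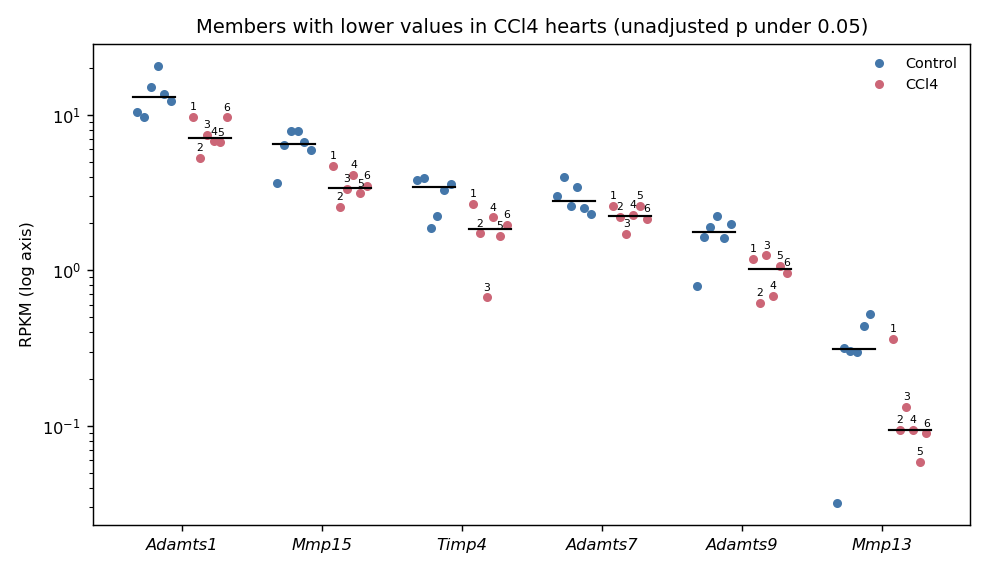
RPKM on a log axis of the 6 members that were lower in CCl4 hearts at an unadjusted p under 0.05, in 6 Control (blue) and 6 CCl4 (red) hearts, with numerals for the CCl4 replicate and black lines for group medians. For Mmp15, Adamts9 and Mmp13 the lowest Control heart, replicate 1, lies apart from the other 5, and CCl4 replicate 1 is the highest CCl4 heart for Mmp15, Timp4, Mmp13, Adamts1 and Adamts7. Mmp13 is a member only through its Control hearts.

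The 7 endothelial markers summed to 156.5 to 187.4 RPKM in Control and 98.6 to 152.2 RPKM in CCl4 hearts, so each CCl4 sum was below each Control sum. Of the 7 markers 6 were lower at an unadjusted p under 0.05 (limma), beside 7.46% of all genes. That share of all genes was 4.97% under median-of-ratios scaling, for which the markers were neither summed nor counted. The endothelial list was lower together with Adamts1, Mmp15 and Adamts9. In Control replicate 1, which was low in Mmp15 and Adamts9, the sum was 159.3 RPKM, close to Control replicates 3 and 5 (156.5 and 158.8 RPKM). The markers of the list did not share a direction in that heart. Kdr (17.4 RPKM, with 28.5 to 39.4 RPKM in the other Control hearts) and Cdh5 (37.8 RPKM) were the lowest of the Control hearts there. Pecam1 (38.0 RPKM) and Vwf (12.4 RPKM) were the highest of the 12 hearts there. Tie1, Esam and Egfl7 lay within the range of the other Control hearts. The part of endothelial content in these levels was not tested. With the atrial marker score as a covariate the log2 fold changes of Adamts1, Mmp15 and Adamts9 were -0.85, -0.73 and -0.55.

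Adamts8, Adamts19 and Adam33 were high in the hearts with most atrial marker RNA; Adamts8 and Adamts19 were picked after their values were seen. Adamts8 was at 2.67 RPKM in Control replicate 1 and 3.63 RPKM in CCl4 replicate 4, the hearts richest in atrial markers, and at 0.131 to 1.40 RPKM in the other 10. Adamts19 was at 1.08 and 0.859 RPKM in that pair and at 0.119 to 0.65 RPKM elsewhere. Adam33, whose variants are known from airway disease, was at 1.99 and 1.73 RPKM in the pair and 0.379 to 1.38 RPKM elsewhere. The atrial light chain Myl7 was at 419 and 307 RPKM in those 2 hearts, at 141 to 181 RPKM in Control replicates 2, 3 and 5 and at 0.811 to 28.7 RPKM in the remaining 7. In CCl4 replicate 3 the atrial sum was also high (9616 RPKM), of which Nppa alone made 9552 RPKM. The log2 fold change of Adam33 was -0.30 (SE 0.17, limma adjusted p = 0.613), and -0.10 with the atrial marker score as a covariate.

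The enzymes that trim procollagen did not share a direction. Adamts2, the main procollagen N-proteinase, was at 1.05 to 2.73 RPKM in Control hearts and at 1.01, 1.204, 9.92, 2.58, 4.59 and 5.74 RPKM in CCl4 replicates 1 to 6. Replicates 3, 5 and 6 were above all Control hearts, and the log2 fold change was 0.79 (SE 0.36, limma adjusted p = 0.513) or 0.52 without CCl4 replicate 3. Its relatives Adamts14 (0.353 to 0.774 and 0.247 to 0.551 RPKM; log2 fold change -0.17, SE 0.09) and Adamts3 (0.322 to 0.796 and 0.272 to 0.654 RPKM; -0.09, SE 0.08) were lower in the mean, with overlapping groups.

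Of the other ADAMTS members, Adamts7 and Adamts12, both known to cleave cartilage oligomeric matrix protein, lay on opposite sides. Adamts7 was at 2.30 to 3.996 RPKM in Control and 1.72 to 2.60 RPKM in CCl4 hearts (-0.28, SE 0.11, limma adjusted p = 0.448), and 6 of 6 CCl4 hearts were under its Control median. Adamts12 was at 0.369 to 0.644 RPKM in Control hearts and 0.306, 0.295, 1.52, 0.402, 0.975 and 1.12 RPKM in CCl4 replicates 1 to 6 (0.24, SE 0.15). Adamts10, a fibrillin-associated member and the fourth most abundant gene of the set, was at 7.73 to 15.2 and 8.46 to 28.7 RPKM (0.41, SE 0.25), Adamts6 at 0.472 to 1.06 and 0.434 to 1.19 RPKM (0.14, SE 0.12), and Adamts17 at 0.148 to 0.305 and 0.127 to 0.31 RPKM (-0.04, SE 0.05). Adamts10 and Adamts6 were highest in CCl4 replicate 3.

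The ADAMTS-like proteins carry no protease domain and bind fibrillin and other microfibril components. Adamtsl2 was at 1.55 to 2.18 RPKM in Control replicates 2 to 6 and 4.91 RPKM in Control replicate 1, and at 1.59, 0.836, 11.2, 2.39, 3.59 and 4.67 RPKM in CCl4 replicates 1 to 6 (0.40, SE 0.38). Adamtsl3 was at 0.75 to 1.34 RPKM in Control hearts and reached 4.13, 1.42 and 2.33 RPKM in CCl4 replicates 3, 5 and 6 (0.36, SE 0.21). Adamtsl4 (1.88 to 4.55 and 1.86 to 3.60 RPKM), Adamtsl1 (0.238 to 0.489 and 0.21 to 0.582 RPKM) and Adamtsl5 (7.35 to 9.75 and 6.78 to 10.02 RPKM) overlapped between the groups, with log2 fold changes of 0.15, 0.03 and -0.12.

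Of all genes tested 38.1% had a positive log2 fold change. The ADAM proteases had log2 fold changes from -0.30 (Adam33) to 0.28 (Adam9), and 11 of 14 were negative, barely so for Adam1b (-0.005) and Adam22 (-0.01). Adam9 had the highest mean of them in CCl4 hearts, at 4.44, 4.09, 13.1, 6.73, 7.84 and 9.16 RPKM in replicates 1 to 6, against 4.91 to 6.96 RPKM in Control hearts (SE of the log2 fold change 0.21). Adam10, the sheddase of Notch receptors, was at 5.13 to 6.23 and 3.58 to 8.28 RPKM (-0.12, SE 0.14), and Adam17, the sheddase of tumour necrosis factor, at 2.59 to 3.24 and 1.53 to 3.18 RPKM (-0.20, SE 0.11, limma adjusted p = 0.598). Adam15 was at 5.10 to 6.77 and 3.29 to 7.04 RPKM (-0.25, SE 0.14) and Adam19, which can release neuregulin, at 1.99 to 3.40 and 1.40 to 3.28 RPKM (-0.13, SE 0.14). In Adam10, Adam15, Adam17 and Adam19 the lowest heart was CCl4 replicate 1 or 2. Adam8, known from leukocytes, and Adam12, known from growing and scarring tissue, were low (0.123 to 0.294 and 0.108 to 0.221 RPKM in Control hearts) and highest in CCl4 replicate 3, at 0.654 and 0.44 RPKM. Both met the level for membership in 3 CCl4 hearts but only 2 Control hearts, so they are members only through their CCl4 hearts.

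The ADAMs without protease activity that act in neural adhesion were also low. Adam23 was at 0.194 to 0.263 RPKM in Control and 0.111 to 0.187 RPKM in CCl4 hearts and did not overlap (-0.06, SE 0.04, limma adjusted p = 0.673). With Adam32 it met the level for membership in Control hearts only, so both could be members only by being higher there. Adam11 was at 0.73 to 1.25 and 0.599 to 0.993 RPKM (-0.15, SE 0.08) and Adam22 at 0.291 to 0.577 and 0.345 to 0.478 RPKM. The genes known from germ cells were Adam1a (1.86 to 2.68 and 1.77 to 2.40 RPKM), Adam1b (0.383 to 0.6 and 0.373 to 0.564 RPKM) and Adam32 (0.117 to 0.254 and 0.0632 to 0.187 RPKM). Exons of Adam1a share 1805 bases with Mapkapk5 on the same strand, so its reads are uncertain.

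**Figure D4:**
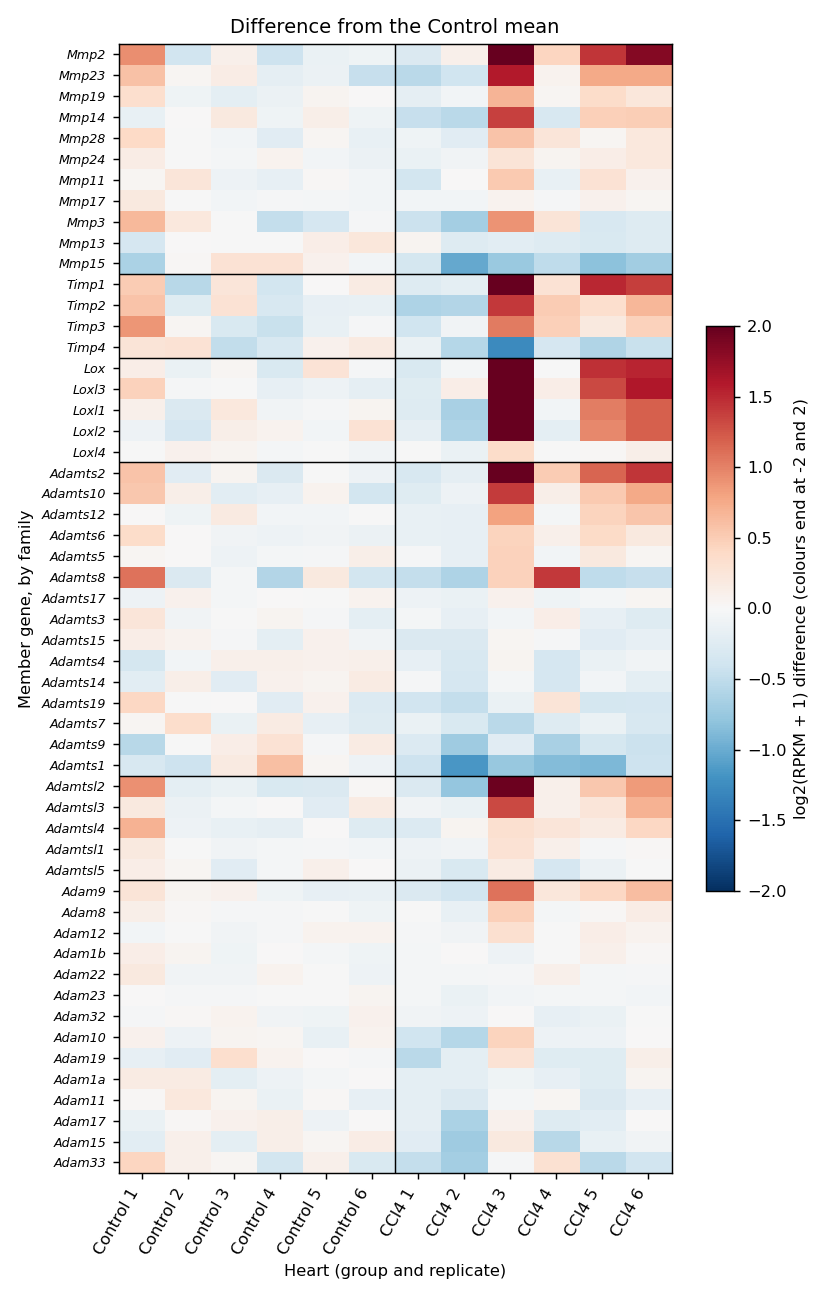
Difference of each heart from the Control mean on the log2(RPKM + 1) scale (colour, ending at -2 and 2) for the 54 members, in rows by family and ordered by log2 fold change within it; columns are the 12 hearts. The red columns of CCl4 replicates 3, 5 and 6 cover Mmp2, Timp1, Lox, Loxl1, Loxl2, Loxl3 and Adamts2 but not Mmp15, Timp4, Adamts1 or Adamts9, which are blue, and Control replicate 1 is red for Timp3 and Adamts8.

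Counted by heart, CCl4 replicate 3 was above all Control hearts in 31 of 54 members (57.4%, beside 42.5% of all genes), replicate 5 in 17 (31.5%, beside 13.4%), replicate 6 in 17 (31.5%, beside 22.2%) and replicate 4 in 1, Adamts8 (1.85%, beside 11.0%). Replicates 1 and 2 were above all Control hearts in 0 members, beside 2.68% and 3.16% of all genes. They were below all Control hearts in 24 and 32 members (44.4% and 59.3%), which is near the background of those libraries, 40.8% and 53.1%. The 3 hearts with high Lox were jointly above all Control hearts in 12 members (22.2%), beside 7.72% of all genes. Without Control replicate 1 there were 23 members (42.6%), beside 13.7%. These 3 hearts were picked by the levels of members such as Lox, which are counted here too. The joint counts, scaled or not, are therefore no support for the members. Under median-of-ratios scaling replicate 3 was above all Control hearts in 25 members (46.3%, beside 24.4%), and replicates 1 and 2 were below them in 9 and 17 (16.7% and 31.5%, beside 11.0% and 17.6%). Fewer members of replicates 1 and 2 were thus low after scaling, and the joint count of replicates 3, 5 and 6 was 13 (24.1%, beside 6.8%). Replicates 4, 5 and 6 were below all Control hearts in 11, 12 and 7 members (20.4%, 22.2% and 13.0%, beside 21.2%, 15.2% and 10.5%). Replicate 3 was below all Control hearts in 6 members, among them Timp4, Mmp15, Adamts1 and Adamts7 (11.1%, beside 12.9%). Adam8 and Adam12, counted as above all Control hearts in replicate 3, are members only through their CCl4 hearts. Adam23, Adam32 and Adamts17, each counted as below in 1 or more replicates, are members only through their Control hearts. The places of these genes in the counts are no support.

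**Figure D5:**
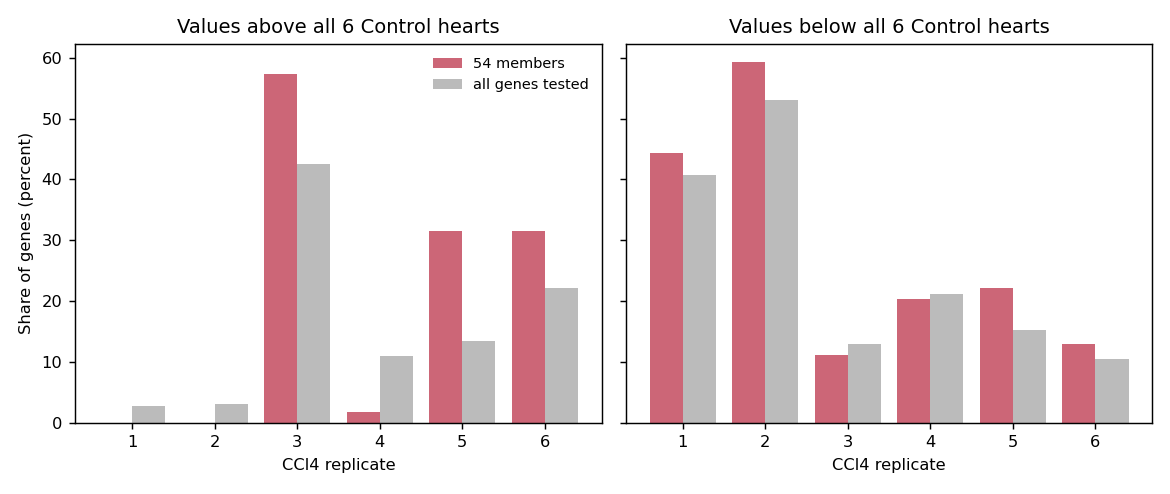
Share of genes (percent) above all 6 Control hearts (left) and below all 6 Control hearts (right) in each CCl4 replicate, for the 54 members (red) and all 18426 genes tested (grey). On the left the red bars exceed the grey ones in replicates 3, 5 and 6 (57.4%, 31.5% and 31.5%). The red bar of replicate 3 there includes Adam8 and Adam12, members only through their CCl4 hearts. On the right the bars of replicates 1 and 2 are high in both colours.

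The spread within the CCl4 group was larger than in Control for 39 of 54 members (72.2%, beside 71.4% of all genes), a share near the background. The SD of log2 values was more than 2 times larger in 22 members (40.7%, beside 27.7%). Adam8 and Adam12, members only through their CCl4 hearts, are among the 22. The median ratio of the SDs was 1.43 over the members and 1.39 over all genes.

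Markers of activated fibroblasts and macrophages were high in the same hearts. The 5 activated fibroblast markers, led by Postn (7.33 to 25.4 RPKM in Control and 6.78 to 349 RPKM in CCl4 hearts), summed to 30.3 to 57.4 RPKM in Control hearts and to 22.5, 41.0, 603, 39.1, 199 and 288 RPKM in CCl4 replicates 1 to 6. Of the 5 markers 3 were higher at an unadjusted p under 0.05 (limma), beside 1.95% of all genes. The 7 macrophage markers summed to 21.7 to 29.0 RPKM in Control hearts and 29.4, 16.6, 105, 25.7, 43.5 and 57.2 RPKM in CCl4 replicates 1 to 6. The 7 markers of fibroblasts in general summed to 281 to 597 RPKM in Control and 285 to 551 RPKM in CCl4 hearts, with the top value in Control replicate 1. That sum is mostly Gsn (194 to 404 RPKM over all hearts) and Dpt. Of the 7 markers 6 had a positive log2 fold change and 2 were higher at an unadjusted p under 0.05, Lum (0.84, SE 0.36) and Pi16 (0.80, SE 0.37); Lum, Pi16, Mfap5, Tcf21, Dpt and Pdgfra were each highest in CCl4 replicate 3. Neutrophil markers stayed at a sum of 0.936 to 2.17 and 0.804 to 2.52 RPKM, with S100a8 at 0.383 RPKM or less in every heart, and the neutrophil enzymes Mmp8 and Mmp9, which did not meet the level for membership, reached 0.0856 and 0.0527 RPKM at most. The part of cell content in the levels of the members was not tested.

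Smooth muscle markers summed to 223 to 375 and 193 to 278 RPKM, pericyte markers to 186 to 287 and 139 to 253 RPKM, mesothelial markers to 4.03 to 15.5 and 0.628 to 14.8 RPKM, valve and cartilage markers to 5.05 to 14.0 and 3.27 to 33.6 RPKM and erythroid markers to 107 to 217 and 143 to 227 RPKM. The valve and cartilage list was also highest in CCl4 replicates 3 and 6 (33.6 and 19.9 RPKM), while CCl4 replicate 5 (13.7 RPKM) was just under Control replicate 1 (14.0 RPKM).

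Other genes of matrix turnover were listed by role beside the members, and none of those tested passed (limma, adjusted over all genes). For comparison, 38.1% of all genes tested had a positive log2 fold change. Of the matrix substrates (collagens, proteoglycans, Eln and Fn1) 9 of 11 had a positive log2 fold change. The 2 negative ones were the basement membrane collagens Col4a1 (-0.43, SE 0.30) and Col4a2 (-0.40, SE 0.31). Col1a2 was at 3.90 to 11.8 RPKM in Control hearts and 3.31, 4.69, 45.4, 10.1, 20.9 and 25.9 RPKM in CCl4 replicates 1 to 6. Col1a1 reached 92.8, 37.5 and 45.8 RPKM and Col3a1 209.5, 90.2 and 112.2 RPKM in CCl4 replicates 3, 5 and 6, against at most 21.02 and 44.8 RPKM in Control hearts. All 4 tested genes of procollagen C-terminal trimming were positive, Tll1 barely so (0.02, SE 0.06). Pcolce2, an enhancer of that step, was at 1.62 to 4.68 and 1.78 to 8.07 RPKM (0.56, SE 0.27) and Pcolce at 4.52 to 6.73 and 3.77 to 16.4 RPKM (0.34, SE 0.25). Of 7 genes that modify collagen before cross-linking 4 were positive, P4ha1 barely so (0.004, SE 0.20). The prolyl hydroxylase subunit P4ha3 was at 0.0707 to 0.761 RPKM in Control hearts and 8.40, 1.88 and 2.72 RPKM in CCl4 replicates 3, 5 and 6. The cathepsins and cystatin C were positive in 6 of 6, Ctsl barely so (0.009, SE 0.16). Ctsk, a collagen-degrading cathepsin, was at 1.55 to 4.87 and 1.49 to 12.5 RPKM (0.79, SE 0.34, limma adjusted p = 0.477).

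In the plasminogen activator system 3 of 5 genes were positive. The protease inhibitor Serpine2 was at 1.23 to 2.37 RPKM in Control hearts and reached 8.56, 3.96 and 4.23 RPKM in CCl4 replicates 3, 5 and 6 (0.65, SE 0.28, limma adjusted p = 0.478). Plaur, the receptor of urokinase, was at 0.627, 0.954, 1.28, 1.61, 1.31 and 1.49 RPKM in Control replicates 1 to 6 and 0.327 to 0.921 RPKM in CCl4 hearts (-0.42, SE 0.12, limma adjusted p = 0.302), and Control replicate 1 again lay among the CCl4 hearts. Of 10 further inhibitors and partners 4 were positive, and Rhbdf2, which carries Adam17 to the cell surface, was at 0.724 to 1.18 and 0.62 to 0.891 RPKM (-0.19, SE 0.07, limma adjusted p = 0.415).

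Just inside the level for membership were Adam32, with 3 hearts at an RPKM of 0.2 or more, and Loxl4 and Adam23, with 4 each. Just outside were Mmp16 and Adam5, with 2 hearts each (highest values 0.324 and 0.305 RPKM), and the macrophage elastase Mmp12, at 0.425 RPKM in CCl4 replicate 3 and at most 0.106 RPKM elsewhere. All 12 hearts reached the level in 43 of the 54 members. In 18 members exons overlap another gene, by the annotation.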

How the data were processed

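Messenger RNA of 12 hearts was sequenced from TRIzol extracts and stranded libraries, per the labels' protocols. The submitters' processing notes name Trimmomatic 0.36, Subread 1.5.1 with featureCounts, and GRCm38; aligner, annotation release and strand setting are not given in the sources used here. RPKM values were deposited by the authors, 1 column per heart, for 31722 symbols. Groups came from the sample titles. Genes at an RPKM of at least 0.2 in 3 libraries were tested with limma 3.58.1 in R 4.3.3 (trend fit of log2(RPKM + 1), no covariate, Benjamini-Hochberg over 18426 genes). Depth was recovered from values times GENCODE M21 exon length (95.2% of symbols matched), whose low values were whole steps within 0.05 in 92.6% to 93.9% of cases per library. The limma fit, not the recovery of depth, was tried on simulated counts with planted fold changes, and its outcome is not given here. Members and lists were chosen with earlier results of these data known. Named by rule were all Timp and Lox genes, 6 genes of smallest p in each other family and members without overlap; the rest are given by range, except Mmp14, Adamts12, Adam9 and Adamtsl2, which are given by heart, and single hearts of others, chosen after their values were seen. RefSeq sequences were matched by symbol. Alternatives covered pseudocount, filter, scaling, weights, covariates, the replicate block and each library left out; voom, a pair left out and counts without Control replicate 1 were added after seeing the data. Tables and plots used numpy 2.4.6, pandas 2.3.3 and matplotlib 3.10.9 in Python 3.11.15.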

Additional observations from a re-analysis of the deposited data

Results flagged for a closer look

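In 20 of 108 groups of 6 hearts, 1 heart lay apart from the other 5 by more than Dixon's 95% limit. Chance flags about 1 in 20 groups only where values are normally distributed and groups are independent. Here the limit was applied to RPKM without logs, and the same hearts recur from gene to gene. That rate is therefore no measure for these data, and no excess over chance is read from the 20 flagged groups. Control replicate 1 was the highest Control heart in 11 of these, at 66.8 RPKM for Timp3, 17.8 for Mmp2, 4.91 for Adamtsl2, 4.55 for Adamtsl4, 2.73 for Adamts2, 2.67 for Adamts8, 2.49 for Loxl3, 1.94 for Mmp28, 1.06 for Adamts6, 0.489 for Adamtsl1 and 0.396 RPKM for Mmp17. CCl4 replicate 3 was the highest CCl4 heart for Timp1 (26.1 RPKM), Lox (13.7 RPKM) and Adamtsl2 (11.2 RPKM). CCl4 replicate 4 was the highest for Adamts8 (3.63 RPKM) and Adam22 (0.478 RPKM), and CCl4 replicate 1 for Mmp13 (0.364 RPKM). For Adam23 Control replicate 6 was highest (0.263 RPKM) and CCl4 replicate 2 lowest (0.111 RPKM), and for Adamts12 Control replicate 3 was the highest Control heart (0.644 RPKM).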

How the results depend on the processing

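With array weights 1160 genes passed, 386 higher and 774 lower, and 9 of the members. Leaving out 1 library gave 0 to 37 genes over all and 0 to 1 members; the highest counts over all came without CCl4 replicate 1 (37) and without Control replicate 1 (31), and 1 gene passed without CCl4 replicate 2. Mmp15 was the member that passed without Control replicate 1. Every other setting gave 0 genes and 0 members, the voom fit and the fit without Control replicate 1 and CCl4 replicate 4 included; at an unadjusted p under 0.05 voom had 3 members higher and 8 lower (5.56% and 14.8%, beside 1.77% and 7.62% of all genes). Without Control replicate 1 the count of members with CCl4 replicates 3, 5 and 6 above all Control hearts was 23, and that of members with all CCl4 hearts below the Control hearts was 4; under median-of-ratios scaling the latter was 0. Of the log2 fold changes of 28 named members only that of Loxl4 turned its sign, between -0.000898 and 0.10 with 1 library left out. With the replicate number as a block 0 members passed and 5 were higher and 5 lower (9.26% each, beside 1.69% and 5.34% of all genes) at an unadjusted p under 0.05. Same-numbered libraries correlated at -0.433 to 0.204, and 2 of 6 Control libraries, replicates 2 and 5, correlated best with the CCl4 library of their own number. Replicates 2 and 5 are also the hearts with almost no Xist RNA in each group, male by their Ddx3y RNA. For them a match by sex and a match by number cannot be told apart. The correlations cannot settle whether the numbers pair the hearts. Depth limits Mmp13, Loxl4, Adam32 and Adamts4, which rest on as few as 4, 12, 12 and 13 steps in a heart. Since most low step counts were even, fewer sequenced fragments than steps may lie behind these values.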
